A study of Danio rerio with 6 samples.

Results

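The claudin genes of the adult zebrafish testis are described here in fish exposed to polystyrene nanoplastics and in control fish. Members were all genes whose symbol begins with cldn, in capitals or lower case, after Ensembl identifiers were matched to symbols. Among the 32520 genes counted, 42 carried such a symbol, and 37 of these reached 10 counts in at least 3 of the 6 libraries and are described below. All 37 also passed the filter on low counts that precedes the test, although cldnk did so through the exposed libraries alone. The exposed group held testes of 3 wild-type adult fish whose water received polystyrene nanoplastics every 24 h over 96 h. The control group held testes of 3 wild-type adults kept without plastic. The labels used here give neither strain and age of the fish nor particle size and dose. Libraries are named by replicate and animal, as exposed 2-2, 3-1 and 3-3 and control 1-2, 2-2 and 3-1, so that 2 exposed fish carry the same replicate number. Nothing in the labels says whether replicates were separate tanks. The p-values take each fish as independent, so they measure the spread between these fish and not between tanks.

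Claudins are small proteins with 4 membrane spans that join neighbouring cells in tight junctions and line up into strands that seal the space between them. Some form pores that let selected ions through, and others close the strand. In the testis they build the barrier between Sertoli cells, the somatic cells that enclose developing germ cells, and in skin, gut and kidney each epithelium carries its own mixture. Fish genomes hold many more claudin genes than mammalian ones, so the role of many members is known from mammals or not at all.

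Libraries held 108273937, 96029888 and 103874587 counts in exposed fish 2-2, 3-1 and 3-3, against 86765952, 76205591 and 77102767 counts in control fish 1-2, 2-2 and 3-1. Levels are given as counts per 1000000 (CPM) after TMM scaling, and 3 counts equal between 0.0262 and 0.0422 CPM, a floor that covers counting error only. Gene length was not available, so each gene is compared only with itself across libraries, and a share of the family is a share of reads. The labels name the sample both as testicles and as germline. Markers of Sertoli cells were counted in every library, with a sum over 21 genes of 2374 to 3433 CPM in exposed testes and 3382 to 3860.0 CPM in control testes. Markers of germ cells summed over 17 genes to 3434 to 5380.4 CPM in exposed testes and 7903 to 7933 CPM in control testes. Markers of epidermis and surface epithelium summed over 41 genes to 21950.1, 18768 and 3432 CPM in exposed testes 2-2, 3-1 and 3-3, against 2798, 5758 and 2955 CPM in control testes 1-2, 2-2 and 3-1. In whole tissue, fewer cells of a type and less RNA per cell cannot be told apart.

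Most claudins had higher values in exposed than in control testes, but none passed the test across all genes. The log2 fold change, exposed over control, was above 0 for 29 of the 37 and below 0 for 8. For comparison, 52.1% of all 26108 genes tested were above 0. The median over the claudins was 1.13, with a range from -2.27 in CLDN2 to 11.19 in cldnk, and over all genes it was 0.04. cldnk had no control count, and since its lower bound also lies above the median, setting it to that bound could not move the median. With each fish left out in turn the median ran from 0.97 to 1.70, the highest without control fish 1-2. A fit with a term for the replicate number gave a higher median still, stated in the last section. The quasi-likelihood test of edgeR called 0 claudins at an adjusted p under 0.05 and 0% of all genes in either direction, and the smallest adjusted p of a claudin was 0.135, for cldna.

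At an unadjusted p under 0.05, 16 claudins (43.2%) were higher, against a background of 9.68% of all genes, and 1 claudin, CLDN2, was lower, against 6.79%. All 3 exposed libraries lay above all 3 control libraries for 15 claudins (40.5%), where 12.8% of all genes did so. They lay below for CLDN2 and CLDN8, 5.41% of the family, where 10.9% of all genes did so. A log2 fold change above 2 was found for 17 claudins (45.9%) and for 8.35% of all genes. These counts include cldnk, which passed the filter only through the exposed libraries, and over the other 36 claudins they were 15, 14 and 16. Those still include cldn1, CLDN23, cldn8.2, cldn15la, cldn23.1 and cldnf, each at 0 in at least 1 control library. The 16 also include cldn33b and CLDN19, both at 0 in control fish 3-1. These genes also needed exposed libraries to reach 10 counts in 3 libraries. The shares of the family are therefore not free of a selection for higher exposed values. With limma voom, 6 claudins were higher at an unadjusted p under 0.05, and the share of all genes in that test was not computed. DESeq2 called 13 claudins higher, cldnk among them, against 5.35% of the genes it tested, and 1 lower, CLDN2, against 1.34%. The 13 also include CLDN23, cldn8.2, cldn23.1 and cldnf, which needed exposed libraries to be kept, so the same limit holds. The bias-adjusted form of the edgeR test called cldn8.2 higher with an adjusted p of 0.0478, beside 0.249% of all genes higher and 0.0192% lower. Since cldn8.2 needed exposed libraries to be kept, this call is not free of that selection either. With limma voom the count was 0 claudins and 0% of all genes.

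The summed claudin level was 3667, 1756 and 1093 CPM in exposed testes 2-2, 3-1 and 3-3, against 634, 679 and 729 CPM in control testes 1-2, 2-2 and 3-1. The mean was 2172 ± 1336 CPM in exposed and 681 ± 47.7 CPM in control testes (SD, n = 3 each), a ratio of 3.19. The 3 exposed fish differed far more among themselves than the 3 control fish did. For 17 of the 37 claudins the level decreased in the order 2-2, 3-1, 3-3, an order shown by 20.0% of all genes.

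The family was split by level alone into 3 classes, a description with no test. Abundant in control testes were 15 claudins with a control mean of at least 5 CPM. Seen mainly in exposed testes were 14 with a lower control mean and an exposed mean of at least 4 times it, and the other 8 were low in both groups. Just above the limit of 5 CPM stood cldna, cldn29 and cldni, with control means of 5.24, 5.49 and 6.64 CPM, and just below it cldng, cldn15b and cldnd1a, with 4.48, 4.37 and 4.09 CPM. Above the 4-fold limit stood cldn33b and cldn30, with ratios of 5.72 and 6.07, and below it cldn15a and cldng, with 2.43 and 2.18.

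**Figure D1:**
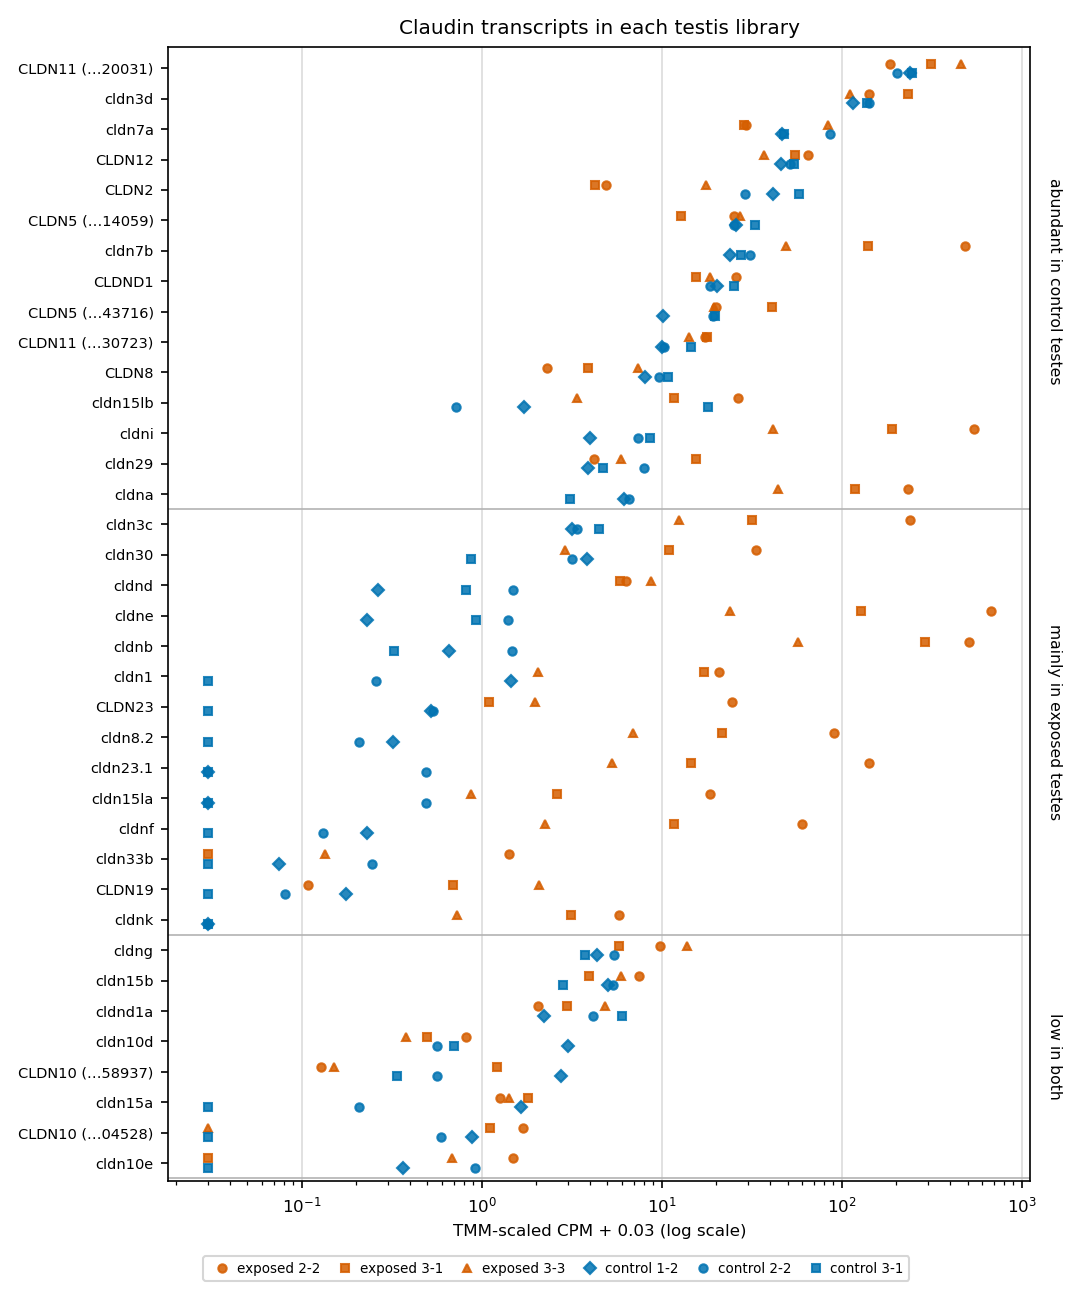
Level of each of the 37 claudins in each library, in TMM-scaled counts per 1000000 plus 0.03 on a log axis; each point is 1 fish, exposed in orange and control in blue, and the genes are arranged by class. The points of the 2 groups lie close together for CLDN11 and CLDN12 and far apart for cldne and cldnb, with exposed fish 2-2 highest and 3-3 lowest in both of these.

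The claudin with the most reads in control testes was CLDN11 (ENSDARG00000020031), whose mammalian counterpart is the main strand protein of the Sertoli cell barrier and is also found in myelin. Male mice that lack it are sterile. It stood at 185, 313 and 459 CPM in exposed testes 2-2, 3-1 and 3-3, against 239, 204 and 245 CPM in control testes 1-2, 2-2 and 3-1. The groups overlapped, with 1 exposed fish below every control fish and the other two above. The log2 fold change was 0.48 ± 0.33 (SE, adjusted p = 0.526). A second gene with the symbol CLDN11 (ENSDARG00000030723) was counted at 17.3, 17.8 and 14.1 CPM in exposed testes and at 10.02, 10.22 and 14.6 CPM in control testes. Control fish 3-1 overlapped the exposed range, and the log2 fold change was 0.50 ± 0.30 (adjusted p = 0.459).

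cldn3d, a paralog related to the mammalian CLDN3 of gut epithelium and of the mouse Sertoli barrier, came next in read number. Its level was 142, 234 and 111 CPM in exposed testes 2-2, 3-1 and 3-3, against 116, 142 and 139 CPM in control testes 1-2, 2-2 and 3-1. The lowest and the highest of the 6 values were both from exposed fish, and the log2 fold change was 0.30 ± 0.30 (adjusted p = 0.696). CLDN12, a widely expressed claudin in mammals, stood at 64.5, 54.8 and 37.1 CPM in exposed testes, against 46.1, 51.5 and 54.4 CPM in control testes. Its groups overlapped in full, with a log2 fold change of 0.04 ± 0.25 (adjusted p = 0.963).

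Both genes with the symbol CLDN5, in mammals the main claudin of blood vessel endothelium and also found in Sertoli cells, were among the 15 abundant ones. The copy ENSDARG00000014059 stood at 25.2, 12.8 and 27.4 CPM in exposed testes 2-2, 3-1 and 3-3, against 25.8, 25.3 and 33.0 CPM in control testes (log2 fold change -0.37 ± 0.33, adjusted p = 0.648). The copy ENSDARG00000043716 stood at 20.1, 41.1 and 19.5 CPM in exposed testes, against 10.1, 19.3 and 19.6 CPM in control testes (log2 fold change 0.72 ± 0.40, adjusted p = 0.421). The groups overlapped for both, and markers of endothelium, 18 genes, summed to 257 to 329 CPM in exposed and 175 to 267 CPM in control testes.

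Of the 7 kept claudins listed for the Sertoli barrier, mainly from work in mammals, 6 had a log2 fold change above 0 and the median was 0.48. At an unadjusted p under 0.05, 1 of them (14.3%) was higher, cldn3c, against 9.68% of all genes, and 0 were lower, and 0 had an adjusted p under 0.05 in edgeR. Of the Sertoli cell markers, 9 of 21 lay above 0, and the ratio of their summed CPM was 0.781. In every exposed fish 8 of the 21 (38.1%) were lower than in any control fish, against 10.9% of all genes. Only 1 (4.76%) was higher, against 12.8%. Divided by amh, the Sertoli cell hormone of the TGF-beta family, CLDN11 (ENSDARG00000020031) gave 0.443, 0.673 and 1.34 in exposed testes 2-2, 3-1 and 3-3, against 0.439, 0.325 and 0.447 in control testes 1-2, 2-2 and 3-1. The second CLDN11 gene gave 0.0415, 0.0383 and 0.0410 per amh in exposed testes, against 0.0184, 0.0163 and 0.0266 in control testes. For cldn3d the ratio was 0.340, 0.503 and 0.323 in exposed testes, against 0.213, 0.227 and 0.253 in control testes. Of the 7 claudins of this list, 5 had ratios to amh that were higher in every exposed fish than in any control fish, where 28.7% of all genes did, and the first CLDN11 gene and CLDN5 (ENSDARG00000014059) overlapped. amh itself stood at 418, 466 and 343 CPM in exposed testes, against 545, 626 and 548 CPM in control testes. The ratios to amh were not tested.

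CLDN2, which in mammals forms a pore for cations and water in kidney and gut, was the claudin with the lowest log2 fold change. It stood at 4.86, 4.21 and 17.6 CPM in exposed testes 2-2, 3-1 and 3-3, against 41.3, 29.1 and 58.0 CPM in control testes 1-2, 2-2 and 3-1. Every exposed fish lay below every control fish, with a mean of 8.89 ± 7.54 CPM in exposed and 42.8 ± 14.5 CPM in control testes (SD, n = 3 each). The log2 fold change was -2.27 ± 0.61, with an unadjusted p of 0.00667, an adjusted p of 0.173 in edgeR and an adjusted p of 0.00315 in DESeq2. CLDN8, a claudin of the kidney collecting duct in mammals, had 2.27, 3.86 and 7.35 CPM in exposed testes, against 8.08, 9.61 and 10.8 CPM in control testes. Its groups did not overlap either, and the log2 fold change was -1.08 ± 0.50 (adjusted p = 0.329). Markers of kidney tubule and ionocytes, 24 genes, summed to 315 to 727 CPM in exposed and 260.1 to 381 CPM in control testes. The part of these cells in the CLDN2 and CLDN8 values was not tested.

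The paralogs cldn7a and cldn7b differed in their values. Their mammalian counterpart lies in the basolateral membrane of many epithelia and binds the adhesion protein EpCAM. cldn7a stood at 29.4, 28.6 and 83.9 CPM in exposed testes 2-2, 3-1 and 3-3, against 46.7, 85.9 and 47.9 CPM in control testes 1-2, 2-2 and 3-1 (log2 fold change -0.35 ± 0.48, adjusted p = 0.789). cldn7b stood at 487, 140.4 and 48.9 CPM in exposed testes, against 23.8, 30.9 and 27.5 CPM in control testes. Exposed and control fish overlapped for cldn7a and did not for cldn7b, whose log2 fold change was 3.04 ± 0.83 (adjusted p = 0.188, and 9.97e-05 in DESeq2). The difference between the paralogs was not tested.

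cldni and cldna passed the control limit by little and had much higher values in every exposed fish. cldni stood at 544, 189 and 41.7 CPM in exposed testes 2-2, 3-1 and 3-3, against 3.98, 7.39 and 8.55 CPM in control testes, a log2 fold change of 5.28 ± 1.03 (adjusted p = 0.156). cldna stood at 235, 118 and 44.2 CPM in exposed testes, against 6.13, 6.53 and 3.07 CPM in control testes, a log2 fold change of 4.66 ± 0.69 (adjusted p = 0.135). With cldn7b they were the 3 of the 15 abundant claudins (20%) that were higher at an unadjusted p under 0.05, against 9.68% of all genes. CLDN2 (6.67%) was lower, against 6.79%. The median log2 fold change of the 15 was 0.48, and CLDND1, a claudin-domain protein taken in by the naming rule, stood at 20.0 ± 5.32 CPM in exposed and 21.3 ± 3.47 CPM in control testes. The 2 other members of this class, cldn15lb and cldn29, overlapped between groups, with log2 fold changes of 1.03 ± 1.33 and 0.64 ± 0.58.

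The 14 claudins seen mainly in exposed testes summed to 1829, 537 and 127 CPM in exposed testes 2-2, 3-1 and 3-3, against 10.7, 13.0 and 7.27 CPM in control testes 1-2, 2-2 and 3-1. The choice of the class fixes this direction. Within it, 12 members had their highest exposed value in fish 2-2 and 2 in fish 3-3.

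cldne and cldnb carried the most reads of this class. In zebrafish embryos cldne marks the outer, enveloping layer of the skin, and cldnb is known from the epidermis, the lateral line primordium and the kidney ducts. cldne stood at 676, 128 and 23.9 CPM in exposed testes 2-2, 3-1 and 3-3, against 0.201, 1.38 and 0.900 CPM in control testes 1-2, 2-2 and 3-1. Its log2 fold change was 8.39 ± 1.71 (adjusted p = 0.165, and 3.63e-08 in DESeq2). cldnb stood at 511, 289 and 57.0 CPM in exposed testes, against 0.626, 1.45 and 0.295 CPM in control testes. Its log2 fold change was 8.49 ± 1.20 (adjusted p = 0.139, and 2.08e-31 in DESeq2). For both genes even the lowest exposed fish, 3-3, lay above all control fish.

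cldn3c, another cldn3 paralog, stood at 239, 31.8 and 12.4 CPM in exposed testes 2-2, 3-1 and 3-3, against 3.17, 3.34 and 4.44 CPM in control testes (log2 fold change 4.69 ± 1.23, adjusted p = 0.189). Unlike most of the class it was counted evenly in the 3 control fish. cldn8.2 stood at 90.3, 21.5 and 6.93 CPM in exposed testes, against 0.291, 0.178 and 0 CPM in control testes (log2 fold change 7.94 ± 1.63, adjusted p = 0.163). cldnf stood at 60.1, 11.7 and 2.22 CPM in exposed testes, against 0.201, 0.102 and 0 CPM in control testes (log2 fold change 7.88 ± 1.80, adjusted p = 0.169). cldn23.1 stood at 142, 14.5 and 5.25 CPM in exposed testes, against 0, 0.459 and 0 CPM in control testes, so that all 36 control counts came from fish 2-2 (log2 fold change 8.46 ± 2.35, adjusted p = 0.198). All 4 genes followed the order 2-2, 3-1, 3-3 among the exposed fish. cldn8.2, cldnf and cldn23.1 were kept only with the help of exposed libraries. Their p-values are not free of a selection for higher exposed values.

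**Figure D2:**
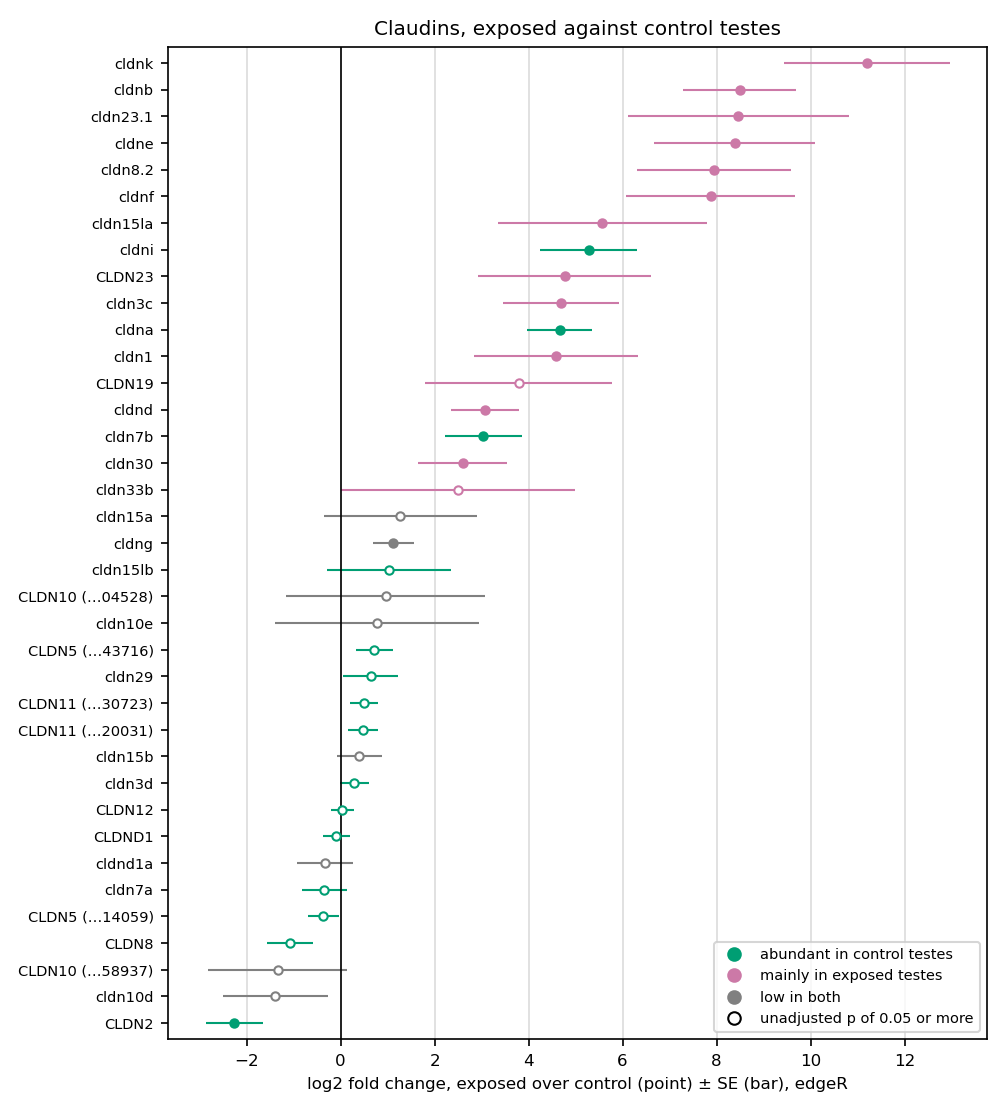
Log2 fold change, exposed over control, of the 37 claudins with bars of 1 SE from edgeR, sorted by size and coloured by class; open points have an unadjusted p of 0.05 or more. Values run from -2.27 in CLDN2 to 8.49 in cldnb among genes with control counts, and the point of cldnk, which had no control count, is a fitted value that depends on the prior count.

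The remaining members of the class are named after their values were seen. cldnd stood at 6.33, 5.87 and 8.71 CPM in exposed testes 2-2, 3-1 and 3-3, against 0.235, 1.47 and 0.788 CPM in control testes, with an SD of 1.52 CPM among the exposed fish, and was the most even of the class. cldn1, whose mouse counterpart seals the epidermis against water loss, stood at 20.9, 17.2 and 2.03 CPM in exposed testes, against 1.43, 0.229 and 0 CPM in control testes (adjusted p = 0.278). cldn15la, known from the zebrafish gut epithelium, stood at 18.6, 2.58 and 0.838 CPM in exposed testes, against 0, 0.459 and 0 CPM in control testes (adjusted p = 0.292). cldn30 and CLDN23 had log2 fold changes of 2.60 ± 0.95 and 4.76 ± 1.85. cldn33b and CLDN19, a claudin of Schwann cells and kidney in mammals, had an unadjusted p of 0.05 or more, with log2 fold changes of 2.50 ± 2.48 and 3.79 ± 1.99. The class was chosen by the same values that these p-values test, so the number of members under 0.05 is not read as a result. cldn1, CLDN23, cldn15la, cldn33b and CLDN19 were also kept only with the help of exposed libraries.

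cldnk, a claudin of myelinating glia in zebrafish, was the only kept claudin with no count in any control library. It had 592, 291 and 80 counts in exposed testes 2-2, 3-1 and 3-3, which are 5.79, 3.09 and 0.698 CPM. Against a floor of 3 counts per control library the exposed mean was at least 84.1-fold higher. Whether both mates of a read pair were counted is unknown, and with a floor of 6 counts the bound is 42.0-fold. It passed the filter through the exposed libraries alone, so its p-value is not given. Markers of myelin and glia, 11 genes, summed to 449, 378 and 309 CPM in exposed testes, against 238, 257 and 273 CPM in control testes, and all 11 had a log2 fold change above 0. Their part in the cldnk value was not tested.

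Of 26 kept claudins listed for surface, gut or kidney epithelium, 21 had a log2 fold change above 0 and the median was 2.55. At an unadjusted p under 0.05, 14 (53.8%) were higher, against 9.68% of all genes, and 1 (3.85%) was lower, against 6.79%, and 0 passed the adjusted threshold in edgeR. The 14 include cldn1, CLDN23, cldn8.2, cldn15la, cldn23.1 and cldnf, which were kept only with the help of exposed libraries. The share of 53.8% is therefore not free of a selection for higher exposed values. Markers of epidermis and surface epithelium lay above 0 for 40 of 41 genes, with a median of 2.16 and a ratio of summed CPM of 3.84. Among these 41, krt95 and krt98 were at 0 in 2 control fish and anxa1c in 1, and the keratin genes krt91 and krt15 were counted in all 6 libraries. Both overlapped between groups, with log2 fold changes of 1.69 ± 0.79 and 1.18 ± 0.72. For krt15, exposed fish 3-3 at 412 CPM lay below every control fish. Another keratin, krt5, is outside the naming rule and was picked after its values were seen. It stood at 3672, 3498 and 179 CPM in exposed testes 2-2, 3-1 and 3-3, against 23.0, 30.2 and 20.1 CPM in control testes 1-2, 2-2 and 3-1. Markers of intestine, 20 genes, summed to 428, 224 and 217 CPM in exposed testes 2-2, 3-1 and 3-3. In control testes 1-2, 2-2 and 3-1 they summed to 87.7, 42.2 and 177 CPM, and 17 of them lay above 0. A single gene of this list, CDH17, gave 229, 4.02 and 16.1 CPM of the exposed sums and 3.11, 1.31 and 7.12 CPM of the control sums. The part of epidermal and intestinal cells in the claudin values was not tested. Of the 41 epidermal markers, 22 (53.7%) were higher in all 3 exposed fish than in any control fish, where 12.8% of all genes tested were. Taken fish by fish, 36, 35 and 24 lay above every control fish in exposed fish 2-2, 3-1 and 3-3. The share of all genes was not computed for single fish, so these counts by fish are not read as a result.

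**Figure D3:**
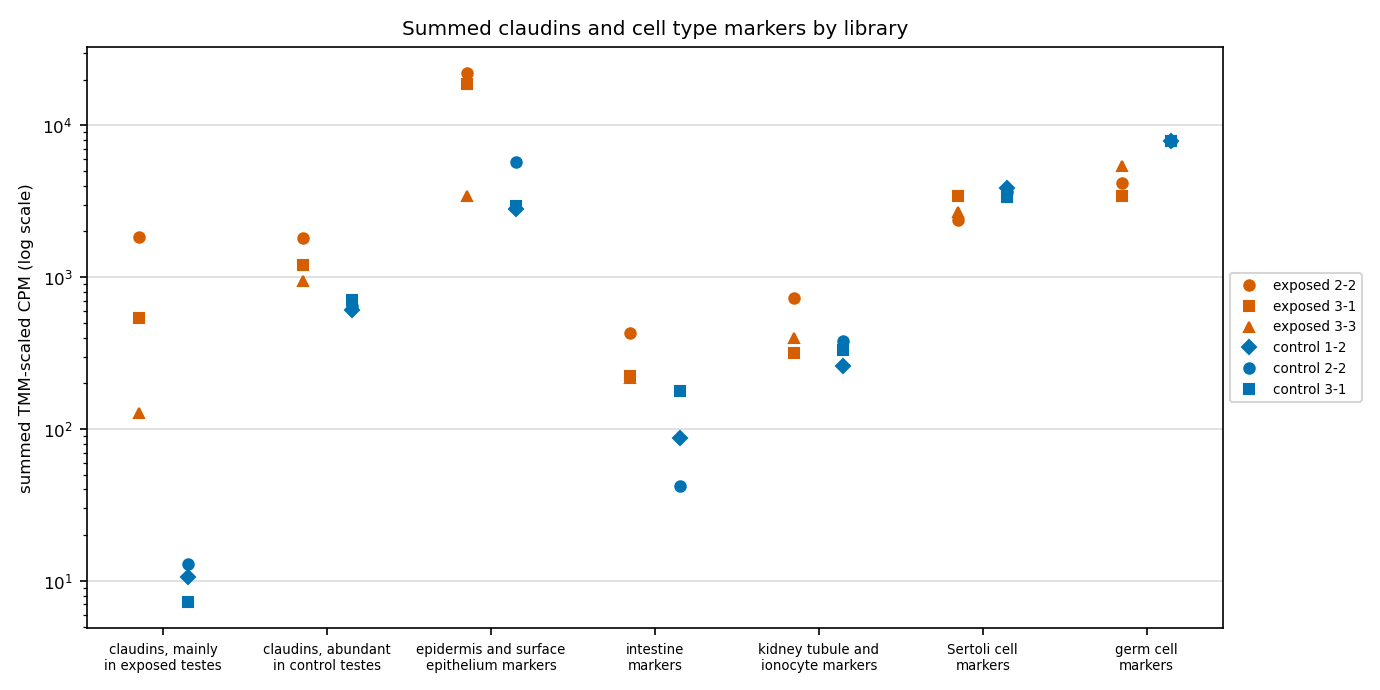
Summed level of the 2 larger claudin classes and of 5 marker lists in each library, in counts per 1000000 on a log axis, with exposed fish left of control fish; each point is 1 fish. The 14 claudins seen mainly in exposed testes span 127 to 1829 CPM in exposed and 7.27 to 13.0 CPM in control fish, while the Sertoli cell markers span 2374 to 3433 CPM and 3382 to 3860.0 CPM.

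The 14 genes were also set against epcam, a membrane protein of epithelial cells, which stood at 1260, 309 and 91.5 CPM in exposed testes 2-2, 3-1 and 3-3, against 14.5, 14.1 and 26.9 CPM in control testes. These ratios were computed after the values were seen and were not tested. For cldnb the ratio was 0.405, 0.933 and 0.623 in exposed testes, against 0.0431, 0.103 and 0.0110 in control testes. For cldn8.2, whose exposed ratios were the steadiest of the 14, it was 0.0717, 0.0696 and 0.0757 in exposed testes, against 0.0200, 0.0126 and 0 in control testes. Other members varied more between the exposed fish, as cldnd did with 0.00502, 0.0190 and 0.0952, against 0.0162, 0.104 and 0.0293 in control testes. For cldn3c it was 0.189, 0.103 and 0.135 in exposed testes, against 0.218, 0.236 and 0.165 in control testes. All exposed ratios lay above all control ratios for 6 of the 14, namely cldnb, cldne, cldnf, cldn8.2, cldn23.1 and cldnk, and overlapped for the other 8. The class was chosen for low control values, which favours low control ratios. The share of all genes with such ratios was not computed, so the count of 6 is not read as a result.

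The mixture of claudins differed between exposed fish. The 15 abundant claudins made up 49.5%, 68.4% and 85.9% of claudin CPM in exposed testes 2-2, 3-1 and 3-3, against 95.2%, 95.5% and 97.2% in control testes 1-2, 2-2 and 3-1. Of this, cldn7b, cldni and cldna together held 34.5%, 25.5% and 12.3% in exposed testes, against 5.35%, 6.60% and 5.37% in control testes, and the other 12 held 14.9%, 42.9% and 73.6% in exposed testes, against 89.8%, 88.9% and 91.8% in control testes. The 14 seen mainly in exposed testes made up 49.9%, 30.6% and 11.6%, against 1.68%, 1.91% and 0.997% in control testes. CLDN11 (ENSDARG00000020031) made up 5.05%, 17.8% and 42.0% in exposed testes, against 37.7%, 30.0% and 33.5% in control testes, so its share in fish 3-3 exceeded that of every control fish. Within the class of 14, cldne led in exposed fish 2-2 with 36.9% and cldnb in fish 3-1 and 3-3 with 53.7% and 44.9%.

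**Figure D4:**
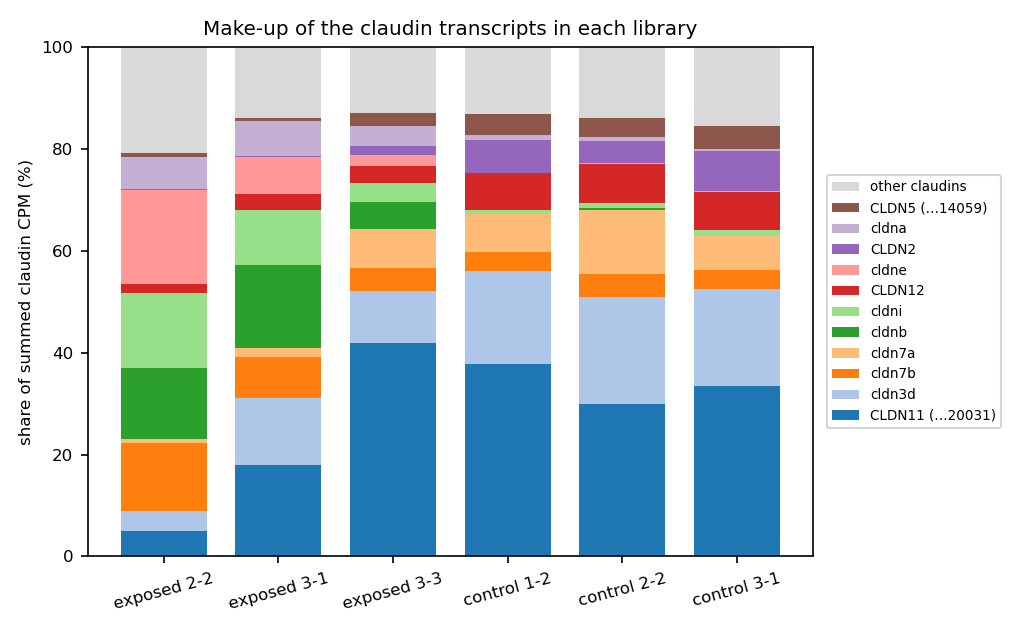
Share of summed claudin counts per 1000000 taken by 11 named claudins and by all others together, in percent, 1 bar per library with exposed fish left of control fish. CLDN11 takes 5.05%, 17.8% and 42.0% in exposed fish 2-2, 3-1 and 3-3 and between 30.0% and 37.7% in control fish.

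The 8 claudins low in both groups had a median log2 fold change of 0.59, with 5 above 0. cldng, at 9.79, 5.73 and 13.8 CPM in exposed testes 2-2, 3-1 and 3-3, against 4.34, 5.39 and 3.70 CPM in control testes, was the only one without overlap between groups (log2 fold change 1.13 ± 0.44, adjusted p = 0.266). cldn15b and cldnd1a had log2 fold changes of 0.40 ± 0.48 and -0.33 ± 0.59. cldn15a, cldn10d, cldn10e and 2 genes with the symbol CLDN10, relatives of mammalian claudins that form ion pores, stayed at or under 3.00 CPM in every library and ran from -1.39 in cldn10d to 1.27 in cldn15a. In all, 12 of the 37 claudins had a count of 0 in a control library, and in each of them control fish 3-1 was at 0. The 5 claudins that were not kept had at most 50 counts in any library, which is cldn26 in exposed fish 3-1. cldn18 and cldn10l2 had 0 counts in all 6.

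Several claudins are neighbours in the genome. In the gene order of RefSeq for the assembly GRCz12tu, cldn3c, cldn3d, cldnb, cldn29, cldnd, cldn28 and cldn30 form a run of 7 genes with no other protein-coding gene between them. Of the 6 measured under these symbols, cldn3d and cldn29 were abundant in control testes and the other 4 were seen mainly in exposed testes. In a run of 4, cldnj, cldne, cldnf and cldna, the first was not kept, cldne and cldnf were seen mainly in exposed testes and cldna was just above the control limit. Neighbours in a run shared a class in some cases, as cldne and cldnf did, and not in others, as cldn3c and cldn3d.

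Other proteins of the tight junction were counted in 3 lists, and differences between these lists and the claudins were not tested. Of 23 strand proteins other than claudins, 16 had a log2 fold change above 0, and the median was 0.50. At an unadjusted p under 0.05, 6 (26.1%) were higher, against 9.68% of all genes, and 2 (8.70%) lower, against 6.79%. oclna, a zebrafish occludin, stood at 264, 104 and 17.2 CPM in exposed testes 2-2, 3-1 and 3-3, against 14.6, 13.6 and 10.8 CPM in control testes (log2 fold change 3.31 ± 0.94, adjusted p = 0.199). Its paralog oclnb stood at 251, 46.7 and 3.45 CPM in exposed testes, against 0.984, 0.918 and 1.21 CPM in control testes (log2 fold change 6.60 ± 1.64, adjusted p = 0.180). Both occludins showed the order 2-2, 3-1, 3-3. f11r.1, a junctional adhesion molecule, and ildr1a, an angulin of tricellular contacts, had log2 fold changes of 1.70 ± 0.56 and 3.37 ± 0.89.

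Of 37 tested proteins of the plaque under the strands and of cell polarity, 28 were above 0 with a median of 0.18. At an unadjusted p under 0.05, 6 (16.2%) were higher, against 9.68% of all genes, and 2 (5.41%) lower, against 6.79%. TJP1, the scaffold that binds claudin tails, stood at 133, 146 and 128 CPM in exposed testes 2-2, 3-1 and 3-3, against 125, 119 and 121 CPM in control testes. All 3 exposed values lay just above the control values, with a log2 fold change of 0.16 ± 0.19 (adjusted p = 0.748). AMOTL2 had a log2 fold change of 0.38 ± 0.25, MAGI1 (ENSDARG00000003169) one of 0.95 ± 0.31 and the polarity gene PALS1 (ENSDARG00000004721) one of -1.33 ± 0.40.

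Of 23 adherens and gap junction proteins tested, 13 (56.5%) were above 0, against 52.1% of all genes, with a median of 0.17. At an unadjusted p under 0.05, 4 (17.4%) were higher and 3 (13.0%) lower, against 9.68% and 6.79% of all genes. cdh1, the cadherin of epithelia, stood at 395, 168 and 120 CPM in exposed testes 2-2, 3-1 and 3-3, against 74.2, 72.0 and 77.1 CPM in control testes (log2 fold change 1.61 ± 0.42, adjusted p = 0.171). The beta-catenin genes ctnnb2 and CTNNB1, the 2 of this list with the most reads, had log2 fold changes of -0.21 ± 0.20 and 0.14 ± 0.22. Across the 3 junction lists edgeR called 0 genes at an adjusted p under 0.05. DESeq2 called 9, where it called 5.35% of all genes higher and 1.34% lower. Without exposed fish 3-3, edgeR called 6 claudins, CLDN2 as lower and cldn7b, cldni, cldna, cldnb and cldnk as higher, and 5 junction partners. In that fit 1.39% of all genes were called higher and 0.0976% lower. Fish 3-3 had the lowest exposed value of each of these claudins called higher and the highest exposed value of CLDN2. With any other single fish left out, edgeR called 0 or 1 gene among all genes tested. The call of cldnk carries no weight, since that gene passed the filter through the exposed libraries alone.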

How the data were processed

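Per the labels' protocols, RNA of snap-frozen testes was extracted with Trizol and sequenced by Novogene after poly(A) enrichment. The authors deposited a table of raw counts, unscaled, for Ensembl genes, in which each fish has its own column. Per the submitters' processing notes, reads were aligned with STAR to GRCz11. Not given in the sources used here are the counting tool, strand setting and treatment of paralogs. For this reason, reads of near-identical claudins, and the split between genes that share a symbol, are uncertain. Between 66.8% and 75.1% of counts from 10 to 99 in a library were even. Where both mates of a pair were counted, floors of 3 counts hold fewer than 3 fragments. No 2 libraries agreed within sampling noise (lowest chi-square over genes, divided by its degrees of freedom, 163), and 0 columns were left out.

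Symbols were found for 29201 of 32520 genes. filterByExpr kept 26108 genes, which entered the quasi-likelihood test of edgeR 4.0.16 after TMM scaling (glmQLFit with robust and legacy settings, glmQLFTest, two-sided) with group as the only term. P-values were adjusted by Benjamini-Hochberg over all genes at 0.05. The procedure was also run on simulated data, whose outcome is not reported here and is not used in reading the results. Alternatives were other scalings, filters and count tests (DESeq2 1.42.0, limma 3.58.1 voom), counts halved, a replicate block, each fish left out, and other class limits. An exact permutation test of 3 against 3 cannot give a p under 0.1 and was not used.

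Values in every library are given for the 8 claudins with the highest control mean, the next 10 by exposed mean and any lower at an unadjusted p under 0.05. Partner genes named are the 2 with the most reads and the 2 with the smallest p of each list, of which 1 is not reported here, and other claudins are named to account for every member. Members, classes and lists were chosen with earlier results of these data known.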

Additional observations from a re-analysis of the deposited data

How the results depend on the processing

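The number of genes past an adjusted p of 0.05 was 0 in the main fit, 1 each with relative log expression factors, upper-quartile factors, library totals only and counts halved, 12 with no filter, 5 with the replicate block, 70 with the bias-adjusted quasi-likelihood and 1756 with DESeq2. With each fish left out in turn it ran from 0 to 396, the highest without exposed fish 3-3. For claudins it was 0, against 1 with the bias-adjusted form, 14 with DESeq2 and 0 to 6 with a fish left out. The 14 and the 6 include cldnk. The 1 was cldn8.2. It, CLDN23, cldn23.1 and cldnf, all among the 14, were kept only with the help of exposed libraries. For junction partners it was 0, against 9 with DESeq2 and 0 to 5 with a fish left out. Claudins higher at an unadjusted p under 0.05 numbered 16, against 6 in limma voom and 12 to 15 with a fish left out, and those lower 1, against 2 in limma voom and 1 to 3 with a fish left out. For limma voom and the fits with a fish left out, the shares of all genes at that p were not computed. Claudins above 0 numbered 29, against 26 to 31 with a fish left out. Their median log2 fold change was 1.13, against 2.72 with the replicate block, which gives control fish 1-2 no partner, and 0.97 to 1.70 with a fish left out. With a class limit of 2 CPM 5 claudins were low in both, against 8. With a fish left out, 13 to 15 were abundant, 12 to 16 mainly in exposed testes and 6 to 10 low in both. CLDN12 changed sign, to -0.0043 with upper-quartile factors and -0.0051 with the replicate block. With a fish left out, the sign changed within -0.14 to 0.23 for CLDN12 (also -0.025 and -0.013), -0.081 to 0.51 for cldn3d, -0.33 to 0.043 for CLDND1 (also 0.024), -0.13 to 0.99 for cldn29, -0.72 to 0.029 for cldnd1a, -3.44 to 0.15 for CLDN10 (ENSDARG00000058937), -0.32 to 2.04 for cldn10e and -0.72 to 4.35 for cldn33b. The cause was not tested. In the other scalings and filters all other claudins kept their sign and their side of the adjusted threshold. Counts halved could test 35 of the 37. Deviations from the group means of same-numbered fish correlated at 0.07, 0.15 and -0.08 in the 3 possible pairings. For fish with different numbers the correlations ran from -0.112 to 0.084. Exposed 3-1 and 3-3 were both set against control 3-1, and deviations from a mean of 3 fish are not independent. These values therefore cannot decide whether the replicate numbers pair the fish, and the main fit did not pair them.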
